A study of Mus musculus with 11 samples.

Results

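Fasting and the ketogenic diet both leave the body short of glucose, and the arrays described here set them against each other in hippocampal astrocytes of mice. The comparison held 3 fasted and 4 ketogenic samples of the 11 in the series and all 20259 genes that had a probe set of their own. The fasted mice had gone overnight without food, for 18 h in the methods and 24 h in the sample labels. The ketogenic mice had eaten a high-fat, low-carbohydrate diet for 4 weeks. The remaining 4 samples came from mice fed chow for 4 weeks, and they entered only to steady the estimate of spread between arrays. All groups shared one genotype, in which Aldh1l1-Cre turns on a ribosomal protein with an epitope tag (Ribo-Tag) in astrocytes, and ribosomes that carry the tag were pulled down from hippocampus with their messenger RNA. The mice were adults, and the labels give each sample a biological sample number without naming the animals behind it, so p-values measure only the spread between these samples.

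Astrocytes take up glutamate and potassium after synaptic activity, store the glycogen of the brain, and line the vessels through which glucose, fatty acids and ketone bodies arrive. They hold most of the enzymes with which the brain oxidises fatty acids. In a fast, the liver releases ketone bodies, and glucocorticoid hormones rise, while a ketogenic diet raises ketone bodies with food still present. Immediate early genes answer neuronal activity and growth factors within minutes, mostly through transcription factors that are already in place.

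Each value is an RMA value of a gene, read as log2, so that a difference of 1 is a doubling. Odorant receptor genes, most of them silent outside the nose, had a median of 2.42 and a 95th percentile of 3.96, which shows how an unexpressed gene reads. In limma, with Benjamini-Hochberg adjustment over all genes and a threshold of 0.05, 57 genes differed, which is 0.281% of those tested. Of these, 45 were higher on fasted than on ketogenic arrays (0.222%) and 12 were lower (0.0592%). The median log2 fold change over all genes was -0.04, and at an unadjusted p under 0.05 there were more lower genes (1302) than higher ones (849). Of all 20259 genes 7963 had a positive and 12296 a negative value. The fasted arrays lay wholly above or wholly below the ketogenic arrays for all 57 genes, as they did for 13.9% of all genes. With each array set relative to the mean of its astrocyte markers, a scale on which the median over all genes was -0.51, 36 genes were higher and 16524 lower, and 34 of the 57 kept their call and direction. Those 34 were 22 of the higher genes and all 12 lower ones. That scale moved every fold change down, so the lower genes could hardly lose their call on it, and it was no check on them. Nor was the threshold as strict there for the higher genes. With 16560 genes called the adjustment was slight, and 39 genes were higher at an unadjusted p under 0.05. Higher and lower are meant relative to the ketogenic arrays only. On the fed arrays, read for their level and not tested here, all 45 higher genes had a mean above the ketogenic mean. The fasted mean exceeded the fed mean for 36 of them, but for 39 the ketogenic mean lay farther than the fasted mean from the fed mean. For 8 of the 12 lower genes the fasted mean lay farther than the ketogenic mean from the fed mean. The higher genes included enzymes of amino acid, fatty acid and glycogen breakdown and membrane proteins of astrocytes, and 8 of the 12 lower genes belong to lists of genes that neuronal activity induces.

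**Figure D1:**
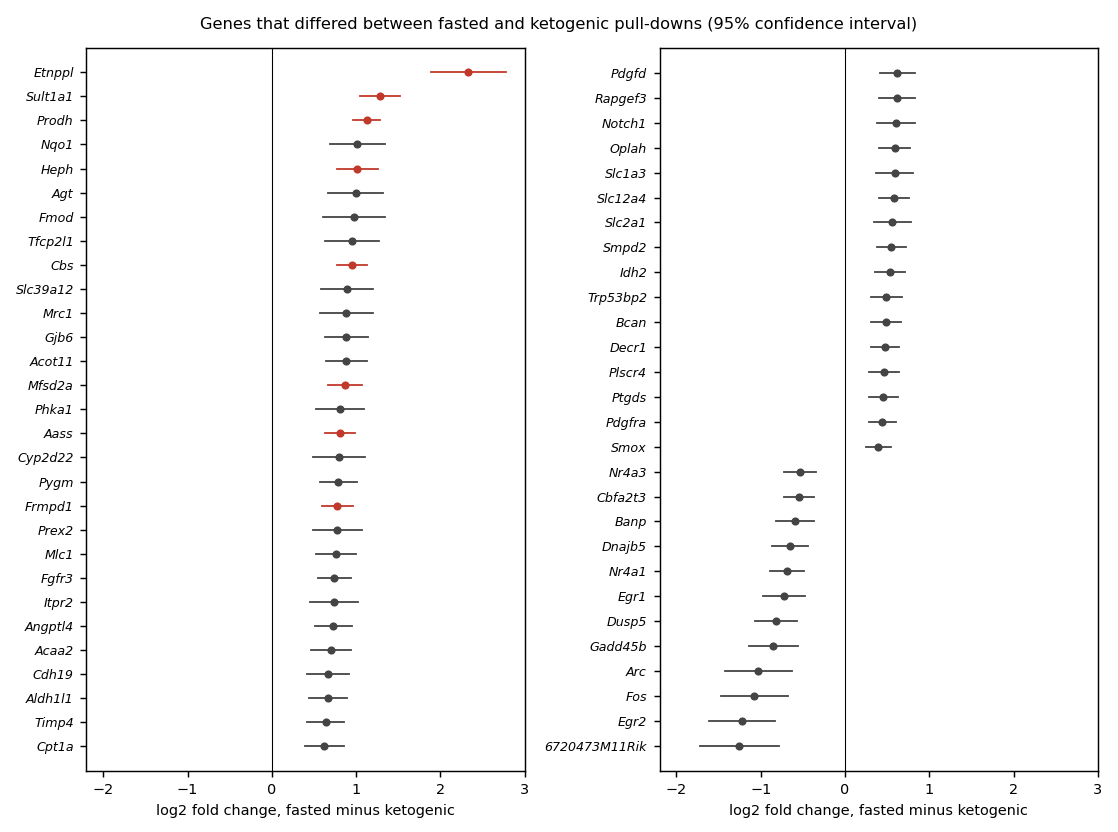
Log2 fold change (fasted minus ketogenic, x axis) of the 57 genes past the threshold, with the 95% confidence interval from limma as a line. Red marks the 8 genes that stayed past the threshold in each of the 7 fits that left out 1 fasted or ketogenic array, and Etnppl stands farthest from 0 at 2.33.

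Etnppl, which encodes ethanolamine phosphate phospholyase, the enzyme that breaks down phosphoethanolamine, showed the highest log2 fold change of all 20259 genes. It read 7.06, 7.01 and 7.42 on the fasted arrays, against 5.02, 4.69, 4.75 and 4.87 on the ketogenic arrays. The lowest fasted array lay 1.99 above the highest ketogenic array, so the gap between the groups was wider than the spread within either. The fitted difference was 2.33 (standard error 0.20, adjusted p = 0.000813 from limma), which is 5.04-fold (95% confidence interval 3.71- to 6.85-fold). The fed arrays read 6.06, 6.02, 6.84 and 6.70, between the groups. Set relative to the astrocyte markers of each array, the difference was 1.86 and still passed. The other 13 measured genes of phosphoethanolamine and ethanolamide metabolism did not pass, and the median of the list was -0.04. Pcyt2, the rate-limiting enzyme of the pathway that builds phosphatidylethanolamine, had a log2 fold change of -0.07, and Etnk1, the kinase that makes phosphoethanolamine, one of -0.08. Naaa, which degrades fatty acid ethanolamides, had the next highest value of the list (0.47, adjusted p = 0.135).

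Several of the genes higher on fasted than on ketogenic arrays encode enzymes that break down amino acids. Prodh, which starts the oxidation of proline in mitochondria, read 6.49, 6.39 and 6.36 on the fasted and 5.25, 5.34, 5.37 and 5.18 on the ketogenic arrays. Its groups were tight and far apart, and it had the lowest adjusted p of all genes (log2 fold change 1.12, standard error 0.07, adjusted p = 0.000209). Cbs, which joins homocysteine and serine to cystathionine, read 7.05, 6.91 and 6.89 on the fasted and 6.03, 5.99, 6.07 and 5.91 on the ketogenic arrays. The fasted values were again all higher, by 0.95 (standard error 0.08, adjusted p = 0.000813). Aass, the first enzyme of lysine breakdown, lay at 4.86 to 5.09 on the fasted and 4.12 to 4.19 on the ketogenic arrays, a low level but a clean separation (0.81, adjusted p = 0.00277). Oplah, the 5-oxoprolinase of glutathione turnover (0.59), and Smox, which oxidises spermine (0.40, but 0.14 with the median over its 3 probe sets), were higher by less. Relative to the astrocyte markers Oplah (0.12) and Smox (-0.0773) did not pass. Of 10 measured genes of proline and ornithine metabolism only Prodh passed (median -0.04), and neither Aldh4a1, which takes up the product of Prodh (0.21, adjusted p = 0.495), nor Oat, which makes the same intermediate from ornithine (0.22), did. Of 18 genes of methionine, transsulfuration and cysteine metabolism only Cbs passed (median 0.14, and 0.07 without fasted array 2). All 15 measured enzymes of serine, glycine and folate metabolism had a positive value (median 0.21). Only the folate enzyme Aldh1l1 passed among them, while Gldc, of the glycine cleavage system, was at 0.53 (adjusted p = 0.194) and Phgdh, which opens serine synthesis, at 0.27. Of 19 genes of branched-chain amino acid breakdown none passed (median 0.15).

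**Figure D2:**
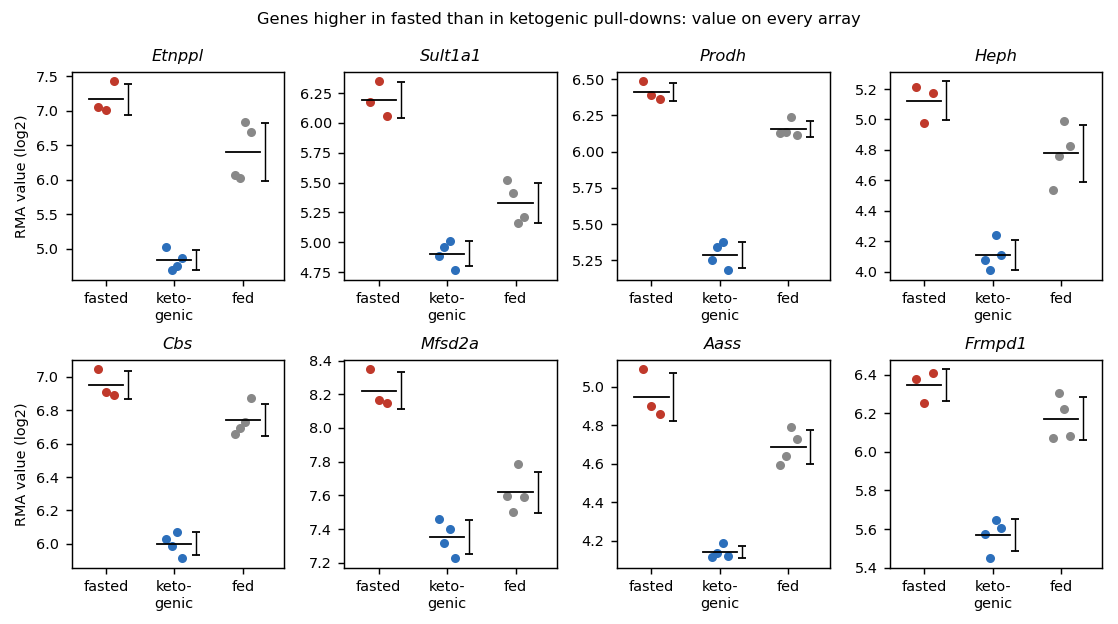
RMA value (log2, y axis) on each array of 8 genes. They were higher on fasted than on ketogenic arrays in every fit that left out 1 fasted or ketogenic array. Points are arrays, the horizontal line is the group mean and the vertical bar 1 SD to either side; in all 8 panels the fasted arrays lie above the ketogenic arrays, and the fed arrays, shown for their level only, mostly lie in between.

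A second set of higher genes handles drugs, quinones, hormones and metals. Sult1a1, a sulfotransferase of phenols and catecholamines, read 6.17, 6.35 and 6.05 on the fasted arrays, against 4.89, 4.96, 5.01 and 4.77 on the ketogenic arrays. The nearest fasted and ketogenic arrays were 1.05 apart, and the difference was 1.29 (standard error 0.11, adjusted p = 0.000813), or 2.44-fold. Nqo1, a quinone reductase under the control of NRF2, read 8.77, 9.37 and 9.00 on the fasted and 8.01, 8.01, 8.17 and 7.94 on the ketogenic arrays. Its groups did not overlap although fasted array 2 stood high (1.02, adjusted p = 0.0256), and the median over its 3 probe sets gave 0.79, which did not pass. Heph, the copper oxidase that helps iron leave cells, read 5.21, 4.98 and 5.18 on the fasted and 4.07, 4.01, 4.24 and 4.11 on the ketogenic arrays, all 3 fasted values being higher (1.01, adjusted p = 0.00442). Slc39a12, a zinc importer, read 8.39, 8.29 and 8.36 on the fasted and 7.33, 7.35, 7.79 and 7.33 on the ketogenic arrays. Ketogenic array 3 lay well above the other ketogenic arrays but below every fasted array (0.90, adjusted p = 0.0319). Agt, the precursor of angiotensin that astrocytes make in the brain, read 8.85, 8.76 and 8.83 on the fasted and 7.57, 7.71, 8.10 and 7.87 on the ketogenic arrays, with no overlap (1.00, adjusted p = 0.027). The cytochrome P450 gene Cyp2d22 lay at 8.70 to 9.12 on the fasted and 7.93 to 8.43 on the ketogenic arrays (0.80). Of 21 sulfotransferases, glucuronosyl and glutathione transferases only Sult1a1 passed (median 0.11), with Gstm2 at 0.70 (adjusted p = 0.0798) and Papss2, which makes the sulfate donor, at 0.54. Of 19 NRF2 targets only Nqo1 passed (median 0.05), and the classical targets Hmox1 (0.00) and Gclc (-0.01) were near 0. Heph was the only one of 18 iron and copper genes past the threshold (median 0.13), although another member, which did not pass, had the highest value of the list (1.15). Slc40a1, the iron exporter that works with Heph, was at 0.31 and close to the level of unexpressed genes. Of 14 zinc transporters and metallothioneins only Slc39a12 passed (median 0.08), and of 15 endothelin, angiotensin and other vasoactive genes only Agt (median 0.09).

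Enzymes of mitochondrial fatty acid oxidation were among the genes higher on the fasted than on the ketogenic arrays. Of 20 measured genes of the pathway 3 were higher past the threshold and none lower, 19 had a positive value, and the median was 0.26, against -0.04 over all genes. The mean of the list ran from 6.12 to 6.14 on the fasted arrays and from 5.80 to 5.88 on the ketogenic arrays. On the fed arrays it ran from 6.06 to 6.15, around the fasted values. Cpt1a, which admits long-chain fatty acids to mitochondria, read 5.93, 6.28 and 6.04 on the fasted and 5.37, 5.43, 5.54 and 5.50 on the ketogenic arrays. Its groups were apart by 0.40 at the nearest arrays (0.62, adjusted p = 0.0427). Acaa2, the thiolase of the last step, read 7.02, 7.33 and 7.11 on the fasted and 6.33, 6.54, 6.60 and 6.34 on the ketogenic arrays (0.70, adjusted p = 0.0319). Decr1, which prepares unsaturated fatty acids for oxidation, read 7.0, 6.98 and 7.12 on the fasted and 6.50, 6.59, 6.58 and 6.55 on the ketogenic arrays, the smallest of these changes (0.48, adjusted p = 0.0354). In each of them all fasted values were higher, but with 1 fasted or ketogenic array left out Cpt1a and Decr1 lost their call in all 7 fits and Acaa2 in 6 of 7. Hadhb (0.53, adjusted p = 0.0926), Hadha (0.38, adjusted p = 0.0814) and Cpt2 (0.49, adjusted p = 0.102), further enzymes of the same mitochondrial route, were positive and did not pass. Idh2, a mitochondrial isocitrate dehydrogenase that yields NADPH, lay at 7.11 to 7.33 on the fasted and 6.57 to 6.75 on the ketogenic arrays (0.53). On the scale relative to the astrocyte markers none of Cpt1a (0.15), Acaa2 (0.23), Decr1 (0.00) and Idh2 (0.05) passed, and the median of the list was -0.21.

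Transport and handling of fatty acids gave 3 further genes. Mfsd2a, which carries lysophosphatidylcholine with docosahexaenoic acid across membranes, read 8.35, 8.17 and 8.15 on the fasted and 7.46, 7.32, 7.40 and 7.23 on the ketogenic arrays. The fasted arrays were all higher and close together (0.87, standard error 0.09, adjusted p = 0.00442). Acot11, which splits acyl-CoA to free fatty acid, read 7.38, 7.28 and 7.14 on the fasted and 6.42, 6.44, 6.57 and 6.10 on the ketogenic arrays, again without overlap (0.88, adjusted p = 0.0115). Angptl4, a secreted inhibitor of lipoprotein lipase, read 4.95, 4.79 and 4.95 on the fasted and 4.26, 3.99, 4.32 and 4.09 on the ketogenic arrays (0.73, adjusted p = 0.0217). All its fasted values were higher, but the level was not far above that of odorant receptor genes. Angptl4 did not pass relative to the astrocyte markers (0.26). Of 17 genes of fatty acid uptake, binding and activation Mfsd2a and Acot11 passed (median -0.04), and of 24 targets of PPAR and genes of the fasting response Cpt1a and Angptl4 (median 0.13). Ppara itself, the receptor that directs the fasting response in liver, was at 0.90 (adjusted p = 0.266), with ketogenic arrays spread from 5.22 to 6.67, and Plin4, a lipid droplet protein, at 0.89 (adjusted p = 0.282), with fasted array 2 at 5.93 and the other fasted arrays at 5.09 and 4.39. Pdk4, which holds pyruvate out of the citric acid cycle, was at 0.45 (adjusted p = 0.401). Among 13 genes of ketone body use and monocarboxylate transport none passed and the median was 0.07. Oxct1 (0.12) and Bdh1 (0.07), which burn ketone bodies, and the transporter Slc16a1 (0.01) were all near 0. Lipid synthesis gave no call either, in 18 genes of fatty acid synthesis and desaturation (16 positive, median 0.15, Srebf1 at 0.38 and Fasn at 0.27) or in 18 of cholesterol synthesis (median -0.07, and 0.03 without fasted array 2, Hmgcs1 at 0.02, Fdps at -0.34). Smpd2, a neutral sphingomyelinase (0.55), and Plscr4, a phospholipid scramblase (0.46), were also higher. Relative to the astrocyte markers neither passed, with Smpd2 at 0.07 and Plscr4 at -0.0145.

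Glycogen and glucose genes were represented by 3 genes. Pygm, a glycogen phosphorylase, read 7.39, 7.49 and 7.35 on the fasted and 6.63, 6.61, 6.82 and 6.42 on the ketogenic arrays. No fasted array overlapped the ketogenic ones (0.79, adjusted p = 0.0115). Phka1, a subunit of the kinase that switches glycogen phosphorylase on, lay at 6.15 to 6.23 on the fasted and 5.24 to 5.55 on the ketogenic arrays (0.81, adjusted p = 0.0346). Slc2a1, the glucose transporter of the blood-brain barrier and of astrocytes, read 7.25, 7.32 and 7.13 on the fasted and 6.84, 6.58, 6.77 and 6.48 on the ketogenic arrays, a small difference near the threshold (0.56, adjusted p = 0.049). Slc2a1 did not pass relative to the astrocyte markers (0.09). Of 33 measured genes of glucose, glycogen and lactate metabolism only Pygm and Slc2a1 passed, and the median was 0.05. Pygb, the brain form of the phosphorylase (0.30, adjusted p = 0.0968), Gys1, a glycogen synthase (0.31), and Hk1, the main hexokinase of brain (0.07), did not pass.

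The mean level of astrocyte markers was higher on every fasted than on every ketogenic array. All 20 measured markers had a positive log2 fold change (median 0.42), 5 passed and none was lower. Their mean ran from 8.29 to 8.49 on the fasted and from 7.84 to 8.09 on the ketogenic arrays, and was 8.38 to 8.53 on the fed arrays. Between fasted and ketogenic arrays these markers thus differed in the same direction as every higher gene named above and below. In such bulk pull-downs a smaller astrocyte share of the RNA and less of each messenger per astrocyte cannot be told apart. The part of the markers in the other results was looked at only on the scale relative to them, on which 22 of the 45 higher genes still passed. That scale called 16560 genes, so its adjustment was slight and passing on it was a weak check. Aldh1l1, whose promoter drives Cre in these mice, read 6.88, 6.86 and 6.94 on the fasted and 6.05, 6.30, 6.42 and 6.15 on the ketogenic arrays (0.67, adjusted p = 0.031). Gjb6, the gap junction protein connexin 30, read 9.31, 8.89 and 9.27 on the fasted and 8.28, 8.31, 8.40 and 8.10 on the ketogenic arrays (0.88, adjusted p = 0.0171). Mlc1, a membrane protein of astrocyte endfeet, read 10.23, 9.93 and 10.17 on the fasted and 9.24, 9.35, 9.60 and 9.20 on the ketogenic arrays (0.76, adjusted p = 0.0245). The fasted values of all of these genes were higher on every array. Fgfr3, a growth factor receptor of astrocytes, read 6.63, 6.50 and 6.46 on the fasted and 5.72, 5.76, 5.85 and 5.83 on the ketogenic arrays (0.74, adjusted p = 0.00988). Slc1a3, a glutamate transporter at a high level on all arrays, read 11.49, 11.15 and 11.48 on the fasted and 10.72, 10.78, 10.94 and 10.70 on the ketogenic arrays (0.59, adjusted p = 0.0421). Gjb6, Mlc1 and Slc1a3 were also the 3 genes that passed among 20 that serve the handling of glutamate, GABA and potassium by astrocytes (median 0.27). On the scale relative to the mean of the markers Aldh1l1 (0.19) and Slc1a3 (0.11) did not pass. The protease inhibitor relative Itih3 was at 1.14 (adjusted p = 0.056), the intermediate filament gene Gfap at 0.53 (adjusted p = 0.125) and the water channel gene Aqp4 at 0.22 (adjusted p = 0.602). Reactive astrocyte genes gave no call in 31 (median 0.04), and neither did 23 genes with which astrocytes form or engulf synapses (median 0.20, Thbs4 at 0.93 and Mertk at 0.49).

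Signalling, matrix and vessel-facing genes completed the higher set. The Rac exchange factor gene Prex2 (0.78) read 9.49 to 9.97 on the fasted and 8.84 to 9.16 on the ketogenic arrays. Itpr2, the main calcium release channel of astrocytes, read 5.52 to 5.78 on the fasted and 4.72 to 5.25 on the ketogenic arrays (0.74), and Rapgef3, an exchange factor that cyclic AMP activates, 6.64 to 6.74 on the fasted and 5.87 to 6.21 on the ketogenic arrays (0.62). Frmpd1, a scaffold protein of the cell cortex, lay at 6.25 to 6.41 on the fasted and 5.45 to 5.65 on the ketogenic arrays (0.78, adjusted p = 0.00442). Tfcp2l1, a transcription factor, read 5.76, 5.28 and 5.53 on the fasted and 4.50, 4.46, 4.81 and 4.50 on the ketogenic arrays, ketogenic array 3 standing above the other ketogenic arrays (0.95, adjusted p = 0.031). The receptor gene Notch1 (0.61), the matrix proteoglycan gene Bcan (0.49), the metalloproteinase inhibitor gene Timp4 (0.64), the potassium chloride cotransporter gene Slc12a4 (0.59), the cadherin gene Cdh19 (0.67) and Trp53bp2, whose product binds p53 (0.49), were also higher than on the ketogenic arrays. Relative to the astrocyte markers Notch1 (0.13), Bcan (0.01), Timp4 (0.17), Slc12a4 (0.11), Cdh19 (0.20) and Trp53bp2 (0.01) did not pass, nor did Itpr2 (0.26) or Rapgef3 (0.14). The fasted mean of Notch1 was 5.89, against 5.28 on the ketogenic arrays, and that of the fed arrays was 5.94.

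Some of the higher genes mark other cells. Fmod, a collagen-binding proteoglycan of meningeal fibroblasts, read 6.62, 6.74 and 6.80 on the fasted and 5.68, 5.54, 6.19 and 5.56 on the ketogenic arrays. Ketogenic array 3 came nearest to the fasted values without reaching them (0.98, adjusted p = 0.0481). Mrc1, the mannose receptor of macrophages around vessels, read 5.55, 5.63 and 5.55 on the fasted and 4.52, 4.67, 4.96 and 4.61 on the ketogenic arrays (0.88, adjusted p = 0.0346). Mrc1 and Slc39a12 are next to each other among the protein-coding genes of chromosome 2 in the RefSeq annotation, and both were higher on all 3 fasted arrays. Pdgfra, the growth factor receptor of oligodendrocyte precursors, read 6.10, 6.07 and 6.15 on the fasted and 5.66, 5.55, 5.79 and 5.65 on the ketogenic arrays (0.44, adjusted p = 0.0407). It was the only one of 10 precursor markers past the threshold (median 0.00, and 0.06 without fasted array 2). Ptgds, a prostaglandin D synthase of meninges and glia (0.45), and Pdgfd, a growth factor gene near the level of unexpressed genes (0.62), were higher as well. Relative to the astrocyte markers Ptgds (-0.0210) and Pdgfra (-0.0300) turned negative and Pdgfd (0.15) did not pass, while Fmod and Mrc1 did. Of 19 ependymal, choroid plexus and meningeal markers Fmod alone passed. The median of that list was 0.46, and 0.06 without fasted array 2, on which the list had a mean of 6.30, against 5.15 and 5.26 on the other fasted arrays and 4.86 to 5.70 on the ketogenic arrays. Kcnj13, a channel of the choroid plexus, read 7.36 on fasted array 2, while the other fasted arrays read 4.51 and 4.04. Of 20 endothelial and mural markers none passed, 19 were positive and the median was 0.30 (0.16 without fasted array 2). Cldn5, the tight junction gene of brain endothelium, was at 0.00.

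**Figure D3:**
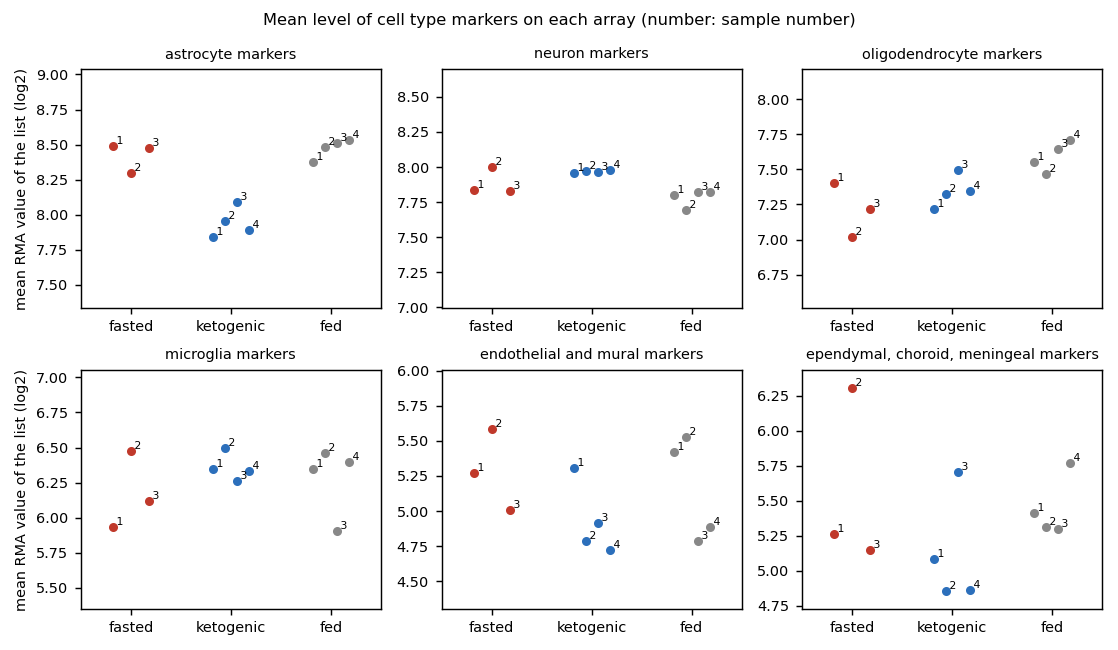
Mean RMA value (log2, y axis) of the measured markers of 6 cell types on each array, by diet, with the sample number beside each point and an equal span on each y axis. Astrocyte markers are higher on all fasted arrays (8.29 to 8.49) than on all ketogenic arrays (7.84 to 8.09), and fasted array 2 stands apart in the ependymal, choroid and meningeal panel at 6.30.

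Of the 12 genes lower on fasted than on ketogenic arrays, 8 are genes that neuronal activity induces. None of the 12 passed without fasted array 1 or ketogenic array 1, 2 or 4. Of 16 immediate early transcription factors 5 were lower past the threshold and none higher (median -0.48), and of 20 activity-induced effector and MAPK feedback genes 3 were lower and none higher (median -0.36). The promoters of such genes are known to carry binding sites for CREB, of which TGACGTC and TGACGCA are forms, and for serum response factor, the CArG box. The promoter windows of RefSeq (GRCm38.p6, 300 bases, most of them before the start of the gene) of 4 lower genes are shown because they hold such letters, set in capitals, on either strand.
Egr2, chr10:67537619-67537918, plus strand: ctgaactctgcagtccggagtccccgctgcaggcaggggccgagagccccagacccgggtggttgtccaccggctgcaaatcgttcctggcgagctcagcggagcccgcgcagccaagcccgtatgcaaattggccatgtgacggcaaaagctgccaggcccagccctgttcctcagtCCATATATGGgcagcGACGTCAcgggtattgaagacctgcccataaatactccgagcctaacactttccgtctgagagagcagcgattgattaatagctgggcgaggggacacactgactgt
Nr4a1, chr15:101266596-101266895, plus strand: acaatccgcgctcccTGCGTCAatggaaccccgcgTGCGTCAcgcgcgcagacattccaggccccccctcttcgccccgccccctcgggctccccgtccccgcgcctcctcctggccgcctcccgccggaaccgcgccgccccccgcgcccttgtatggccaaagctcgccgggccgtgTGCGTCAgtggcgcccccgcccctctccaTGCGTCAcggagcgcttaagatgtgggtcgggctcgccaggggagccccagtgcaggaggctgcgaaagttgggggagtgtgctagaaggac
Dusp5, chr19:53528895-53529194, plus strand: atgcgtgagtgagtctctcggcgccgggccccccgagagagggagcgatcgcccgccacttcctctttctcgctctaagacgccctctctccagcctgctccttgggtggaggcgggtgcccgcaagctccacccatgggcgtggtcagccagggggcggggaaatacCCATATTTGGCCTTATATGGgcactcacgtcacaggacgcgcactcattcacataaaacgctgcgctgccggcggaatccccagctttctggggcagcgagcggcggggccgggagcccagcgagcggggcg
Nr4a3, chr4:48045055-48045354, plus strand: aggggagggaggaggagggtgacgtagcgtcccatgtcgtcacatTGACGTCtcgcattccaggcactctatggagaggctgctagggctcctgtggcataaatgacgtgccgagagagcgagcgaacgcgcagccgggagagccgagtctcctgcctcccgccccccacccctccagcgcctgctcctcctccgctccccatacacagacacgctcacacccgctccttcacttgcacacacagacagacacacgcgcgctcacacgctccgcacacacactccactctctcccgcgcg
The window of Egr2 holds 1 CArG box and 1 TGACGTC, here as its reverse complement, that of Dusp5 2 CArG boxes side by side, that of Nr4a1 4 copies of TGACGCA as the reverse complement and that of Nr4a3 1 TGACGTC. Egr2 has 5 windows, and one with the most matches is shown. Windows were given for 9 of the 12 lower genes, and a gene counted if any of its windows held the motif. So counted, 2 of the 9 held TGACGTC, 1 TGACGCA and 2 a CArG box. Over all 32851 windows, each counted singly, TGACGTC stood in 3.21%, TGACGCA in 2.12% and the CArG box in 1.63%. A gene with several windows can match more easily than a single window, so the counts by gene and these shares are unlike measures. Of 37 higher genes with a window 1 held TGACGTC and none the other motifs. These matches describe letters in a window and do not show binding.

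Egr2, a zinc finger transcription factor, read 5.38, 5.06 and 5.71 on the fasted arrays, against 6.89, 6.61, 6.52 and 6.4 on the ketogenic arrays. The highest fasted array stayed 0.69 below the lowest ketogenic one (-1.22, standard error 0.18, adjusted p = 0.0256). Fos, a subunit of the AP-1 transcription factor, read 4.46, 4.26 and 4.86 on the fasted and 5.51, 5.68, 5.73 and 5.50 on the ketogenic arrays (-1.08, adjusted p = 0.0427). Arc, a protein of active synapses, read 7.33, 6.87 and 7.40 on the fasted and 8.51, 8.32, 8.0 and 8.09 on the ketogenic arrays (-1.03, adjusted p = 0.0484). Both genes were lower on all fasted arrays, and both lost their call in each of the 7 fits that left out 1 of these arrays. Egr1, a close relative of Egr2, read 7.01, 7.02 and 6.98 on the fasted and 7.73, 7.79, 7.60 and 7.77 on the ketogenic arrays (-0.72, adjusted p = 0.0346). Gadd45b, a stress protein that neuronal activity induces, read 5.81, 5.94 and 5.97 on the fasted and 6.69, 6.90, 6.57 and 6.87 on the ketogenic arrays (-0.85, adjusted p = 0.0346). Dusp5, the phosphatase that switches off ERK in the nucleus, read 6.24, 5.96 and 6.20 on the fasted and 6.86, 6.96, 6.91 and 7.06 on the ketogenic arrays (-0.82, adjusted p = 0.0221). All fasted values of these genes were lower, and for Dusp5 the median over 3 probe sets gave -0.53, which did not pass. The orphan nuclear receptor gene Nr4a1 read 5.55, 5.31 and 5.61 on the fasted and 6.15, 6.24, 6.17 and 6.14 on the ketogenic arrays (-0.69, adjusted p = 0.0179). Its relative Nr4a3 read 5.74, 5.94 and 5.72 on the fasted and 6.4, 6.38, 6.28 and 6.28 on the ketogenic arrays (-0.53, adjusted p = 0.0354). Both receptors were lower on every fasted array.

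**Figure D4:**
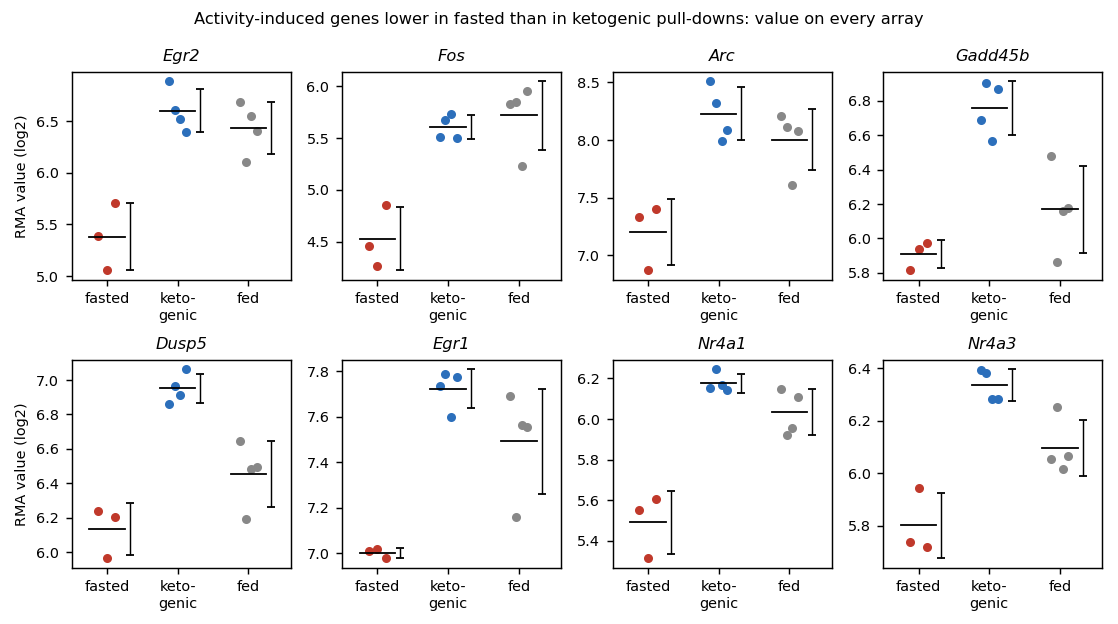
RMA value (log2, y axis) on each array of the 8 activity-induced genes that were lower on fasted than on ketogenic arrays. Points are arrays, the horizontal line is the group mean and the vertical bar 1 SD to either side; every fasted array lies below every ketogenic array in all 8 panels, by 0.69 at the nearest arrays for Egr2.

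Of the 2 lists 14 of 16 and 15 of 20 genes had a negative value, most of them without passing. Negative values were also the more common over all genes (12296 of 20259). The neuronal factor Npas4 was at -0.79 (adjusted p = 0.298), Fosb at -0.72 (adjusted p = 0.0826), Egr3 at -0.70 (adjusted p = 0.398), the phosphatase gene Dusp6 at -0.56 (adjusted p = 0.0761), the synaptic genes Nptx2 at -0.60 and Homer1 at -0.55, and the neurotrophin gene Bdnf at -0.38. Jun was at -0.14, and Klf4 was the highest at 0.62 with ketogenic array 4 at 4.75 and the other ketogenic arrays at 6.03 to 6.61. The mean of the transcription factor list was 5.64 to 5.83 on the fasted, 6.06 to 6.33 on the ketogenic and 5.91 to 6.18 on the fed arrays, so the fasted and ketogenic arrays did not overlap. Neuron markers gave no call in 24 (median -0.08, Snap25 at 0.07, Rbfox3 at -0.03). Their mean was 7.83 to 8.0 on the fasted and 7.96 to 7.98 on the ketogenic arrays. The overlap rests on fasted array 2, the other fasted arrays reading 7.83, below every ketogenic array, and without it the median of the list was -0.15. How much of the signal of activity-induced genes came from astrocytes was not tested.

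The 4 remaining lower genes had little in common. Dnajb5, a co-chaperone of the Hsp40 family, read 6.96, 6.99 and 7.12 on the fasted and 7.75, 7.70, 7.64 and 7.60 on the ketogenic arrays (-0.65, adjusted p = 0.0269). Cbfa2t3, a transcriptional corepressor, read 5.80, 5.71 and 5.75 on the fasted and 6.32, 6.29, 6.27 and 6.33 on the ketogenic arrays (-0.55, adjusted p = 0.0245), and the median over its 2 probe sets gave -0.32, which did not pass. Banp, which encodes a nuclear protein, read 4.93, 4.67 and 4.72 on the fasted and 5.44, 5.41, 5.24 and 5.39 on the ketogenic arrays (-0.60, adjusted p = 0.0432). All 3 were lower on every fasted array. The transcript 6720473M11Rik read 2.43, 2.86 and 3.17 on the fasted and 4.27, 4.08, 4.02 and 3.93 on the ketogenic arrays, the lowest fold change among the genes past the threshold (-1.25, adjusted p = 0.0435) but at the level of unexpressed genes in the fasted group. The median over its 2 probe sets gave -0.66, which did not pass. Of 13 cold-inducible and heat shock genes none passed (median -0.16, Rbm3 at 0.43, Hspa1a at -0.55).

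Hormone and clock targets changed in few places. Of 34 measured targets of the glucocorticoid receptor 5 were higher past the threshold and none lower, Sult1a1, Prodh, Gjb6, Mfsd2a and Angptl4, while the median of the list was 0.10. Over all genes 0.222% were higher. Gjb6 is also one of the astrocyte markers, and Angptl4 did not pass relative to those markers (0.26). Of the genes that the study itself read as responsive to glucocorticoids in cultured astrocytes, Prodh, Gjb6 and Etnppl (2.33) passed. Folh1 (0.88, adjusted p = 0.0814), Mertk (0.49, adjusted p = 0.0826), Fkbp5 (0.05), Sgk1 (-0.12) and Ch25h (-0.22) did not, and Klf9 was not among the genes past the threshold. Fkbp5 and Ch25h lay near or below the level of unexpressed genes. Among further targets Hif3a was at 0.51, Tsc22d3 at 0.07 and Per1 at -0.04. No clock gene passed among 18 (median -0.01). Nr1d1, a repressor in the clock, had the lowest value there, with 2.5, 3.29 and 4.11 on the fasted and 4.52 to 4.95 on the ketogenic arrays (-1.43, adjusted p = 0.103), and Dbp, which follows the clock in most tissues, was at -0.03. ATF4 targets (21 genes, median -0.04, and 0.06 without fasted array 2, Atf4 at -0.46) and thyroid hormone genes (12 genes, median -0.02, Slco1c1 at 0.67 and Dio2 at 0.32) gave no call. Microglia markers (16 genes, median -0.16, and -0.35 without fasted array 2), oligodendrocyte markers (14 genes, median -0.11, and -0.02 without fasted array 2, Mbp at -0.13) and hippocampal subfield and interneuron markers (16 genes, median -0.15) gave none either.

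**Figure D5:**
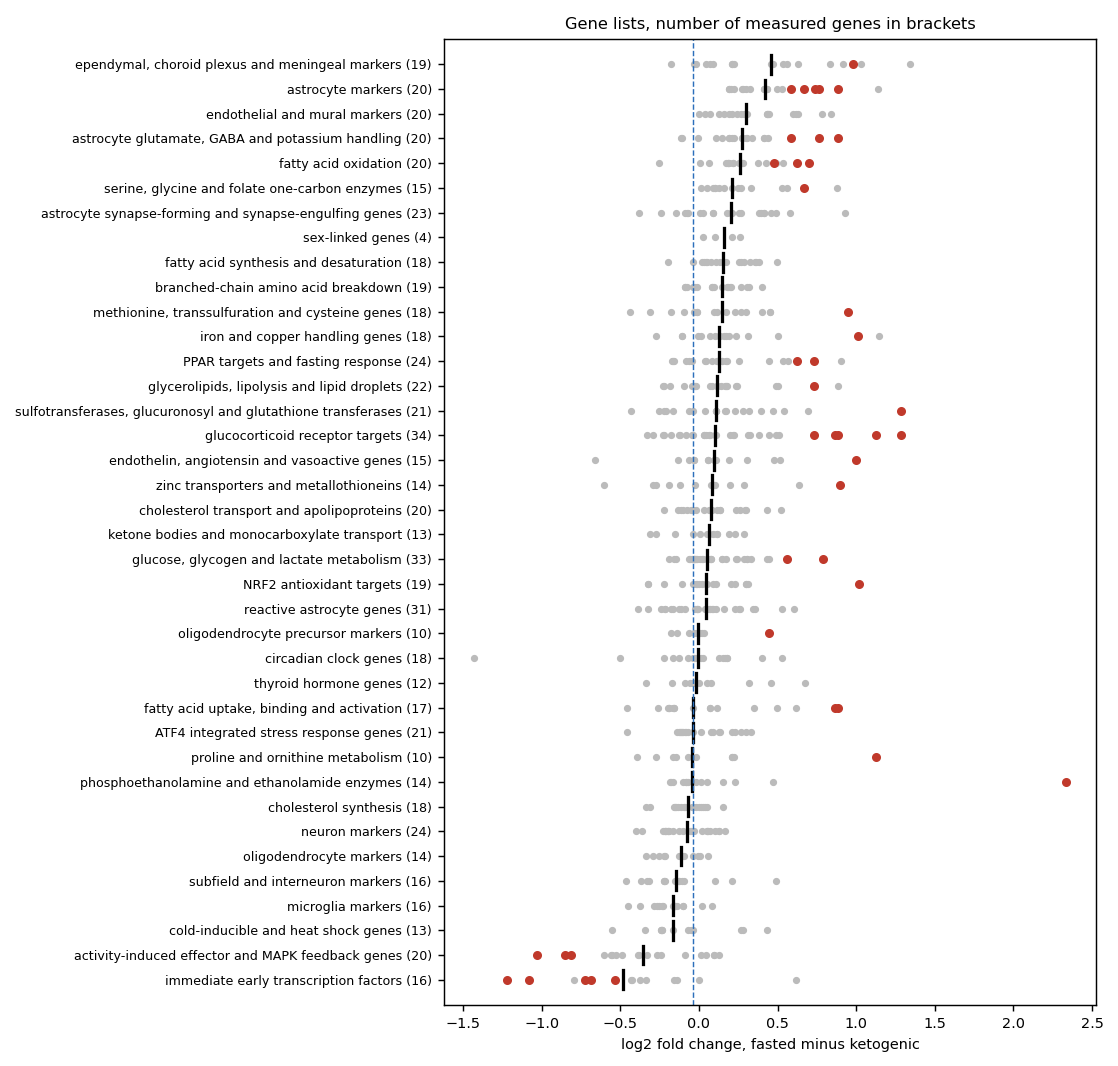
Log2 fold change (fasted minus ketogenic, x axis) of each measured gene in 38 gene lists, ordered by the list median, with the number of measured genes in brackets. Grey points did not pass, red points passed, black bars are list medians and the dashed blue line is the median over all genes (-0.04); astrocyte and fatty acid oxidation lists lie to the right (0.42 and 0.26) and both activity lists to the left (-0.48 and -0.36).

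Which of these calls stood depended on single arrays. Etnppl, Sult1a1, Prodh, Heph, Cbs, Mfsd2a, Aass and Frmpd1 passed in all 7 fits that left out 1 fasted or ketogenic array, and 12 of the 57 genes passed in none of them. Fasted array 2 and fed array 2 stood apart from the others, with weights of 0.458 and 0.251 in limma, against 1.03 to 1.43. The 57 genes became 27 without fasted array 2 (20 of them shared), 162 without fed array 2 (57 shared) and 79 without both (39 shared).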

How the data were processed

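Messenger RNA pulled down with tagged ribosomes was amplified, labelled with biotin and hybridised to Affymetrix mouse exon arrays read by gene. The authors deposited log values made by RMA in Partek on mm9. The log base of the deposited values is not given in the sources used here, and they were read as log2, the base RMA uses. Of 115830 probe sets, 25539 were paired with 1 symbol, 2300 with several and 87991 with none, and a gene with several sets was read from the one highest on average. Fasted was set against ketogenic in limma 3.58.1 (R 4.3.3), 1 mean for each diet over all 11 arrays, two-sided, Benjamini-Hochberg over 20259 genes, after a test on simulated data. The methods name no test across genes; their t-test was an alternative. Genes past the threshold were named, with values on every array for the 14 highest, the 12 lowest and those in a list, and from 38 lists members of large change or central role. The members and lists were chosen with earlier results of these data known. No set test was run. Within a group arrays correlated at 0.980 to 0.990, and precision is limited by how few there were. No array of unpurified tissue was used, so purity was not measured. Promoter windows are from RefSeq.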

Additional observations from a re-analysis of the deposited data

Results flagged for a closer look

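In 8 of 216 groups of 4 arrays, taken over the genes named in the text, 1 array stood apart from the other arrays of its diet, its gap to the nearest array being most of the range of the group (the ratio given with each), and chance gives about 1 in 20 such groups. Among the genes past the threshold, ketogenic array 3 was the highest for Slc39a12 (7.79, against 7.33 to 7.35 on the other ketogenic arrays, ratio 0.957) and for Tfcp2l1 (4.81, against 4.46 to 4.50, ratio 0.886). Fed array 2 was the highest for Phka1 (6.70, against 6.18 to 6.22, ratio 0.923). Among genes that did not pass, ketogenic array 2 was the highest for Kcnj10 (7.26, against 7.17 on the other ketogenic arrays, ratio 0.914) and for Hadha (6.81, against 6.74 to 6.75, ratio 0.858). Ketogenic array 1 was the highest for Abcb1a, the drug efflux pump of brain endothelium (5.14, against 4.20 to 4.32, ratio 0.876), and the lowest for Acadvl (6.21, against 6.33 to 6.35, ratio 0.879) and for the myelin gene Ermn (8.72, against 8.90 to 8.94, ratio 0.839).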

How the results depend on the processing

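The count of 57 genes moved with the samples and the model. It was 34 (21 higher, 13 lower, 26 shared) with only the 7 fasted and ketogenic arrays in the fit, 188 with array weights, 88 among genes above the level of odorant receptors, 31 with each array centred on the median of all probe sets, 6 with the methods' t-test (Bmp2k, Cbfa2t3, Cbs, Etnppl, Prodh and Smox, and 932 higher and 1648 lower at an unadjusted p under 0.05), 2 among all 115830 probe sets, both of genes in the 57, and 16560 relative to astrocyte markers. On that scale the median of all genes was -0.51, and Plscr4 (-0.0145), Ptgds (-0.0210), Pdgfra (-0.0300) and Smox (-0.0773) turned negative. With single arrays left out the count ran from 8 to 162. It was 9, 27 and 12 without fasted array 1, 2 and 3, 11, 8 and 11 without ketogenic array 1, 2 and 4, and 35, 162, 34 and 28 without fed array 1, 2, 3 and 4. In limma no gene was lower past the threshold without fasted array 1 or ketogenic array 1, 2 or 4, or with the replicate block below, although 971 to 1124 were lower at an unadjusted p under 0.05. The cause was not tested. It stayed within 1.5 times without ketogenic array 3 (61), without fed and fasted array 2 (79), with each array centred on the median of its genes (59), with the median over probe sets (56) and with a trend in the spread (53). The labels do not say whether samples with the same number belong together. The deviations of such fasted and ketogenic samples from their group means correlated at -0.02, -0.12 and -0.06, which cannot decide it with so few arrays. A fit with the replicate block gave 6 genes (Angptl4, Cbs, Etnppl, Heph, Prodh and Sult1a1). Cbs, Etnppl and Prodh passed under every alternative run by gene, and in every fit but the one relative to astrocyte markers all 57 genes kept their direction where they were fitted. The fits without a fed array, on all probe sets, relative to astrocyte markers and centred on all probe sets were chosen after the data were seen. Of all genes 34.8% lay below the 95th percentile of odorant receptors.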

Other observations

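Other genes of macrophages around vessels were set beside Mrc1 after its value was seen. Cd163, a scavenger receptor, had a log2 fold change of 0.40 (adjusted p = 0.152 from limma), the chemokine gene Pf4 0.37, the clotting factor gene F13a1 0.34 (adjusted p = 0.353) and the hyaluronan receptor gene Lyve1 0.27 (adjusted p = 0.681), none of them past the threshold. Choroid plexus genes read high on fasted array 2 and, less so, on ketogenic array 3. Ttr, which carries thyroid hormone in the cerebrospinal fluid, read 5.99, 8.35 and 5.95 on the fasted and 6.43, 5.77, 7.52 and 5.49 on the ketogenic arrays (log2 fold change 0.46, adjusted p = 0.838), and Otx2, a transcription factor of the choroid plexus, read 4.10, 7.49 and 3.73 on the fasted and 4.06, 3.48, 5.77 and 3.44 on the ketogenic arrays (0.92, adjusted p = 0.746). The groups overlapped for both genes.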
